A study of Rattus norvegicus with 54 samples.

Results

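Transcripts of the proteasome and of the ubiquitin system were followed in fetal rat gubernaculum, the cord that guides descent of the testis, and in fetal testis. A probe set was a member when its gene title in any of the authors' 3 deposited lists contained the word proteasome or ubiquitin. Titles of a ribosomal protein or of ubiquinol were left out, as was the hydrolase Uchl1. This gave 75 of the 3922 listed probe sets, among 15923 in the value table. Of these, 29 probe sets stood for 28 proteasome names and 46 for enzymes and proteins of the ubiquitin system. The authors chose the lists on these same arrays: 71 members were in the gubernaculum list, 13 in the list of change with age in the wild-type strain and 7 in the testis list. A call in a contrast behind those lists is therefore not independent evidence of its direction.

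LE/orl is a cryptorchid rat strain and LE/wt the wild-type strain set against it. The gubernaculum groups were male LE/orl left organs at gestational day (GD) 18, 19 and 20 (n = 4 each), male LE/orl right organs at GD20 (n = 3), the same 4 groups of male LE/wt fetuses, and female LE/wt gubernacula at GD18 (n = 4), for which both sides of a fetus were combined. Left testes came from male LE/orl and LE/wt fetuses at GD17 and GD19 (n = 5 per strain and day). Each array held RNA of 1 fetus, 34 arrays for gubernaculum and 20 for testis. Right and left gubernacula of GD20 with the same replicate letter came from the same fetus. Values are the deposited log2 expression values, so a difference of 1 is a doubling. Differences are LE/orl minus LE/wt, male minus female, or later minus earlier day.

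The proteasome is the cell's main protease for proteins marked with ubiquitin. Its barrel is built of rings of alpha and beta subunits, and some of the beta subunits carry the cutting sites. A cap of ATPase and non-ATPase subunits (the 19S particle) recognises, unfolds and feeds in the substrate, and another cap, PA28, opens the barrel without ubiquitin. Ubiquitin is activated by an E1 enzyme, passed to an E2 conjugating enzyme and attached to the substrate by an E3 ligase, and deubiquitinases take it off. In striated muscle, which the gubernaculum also holds, the system breaks down contractile proteins.

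The median log2 value of an array was 4.92 to 5.18 for gubernaculum and 4.76 to 4.85 for testis. All 12 striated muscle markers were measured above the minimum in gubernaculum, with a summed log2 level of 109.8 to 128.4 in LE/orl and 101.9 to 137 in LE/wt arrays. At GD18, 4 of the 12 fell and 2 rose in LE/orl, and at GD19 6 fell and 1 rose. On the left at GD20 8 fell and 0 rose (median −1), and on the right 6 fell and 0 rose (median −0.9). The shares of all features called in these comparisons stand beside the proteasome counts below. No Leydig, Sertoli or germ cell marker was named in the lists, so the testis label was not checked. The 5′ to 3′ index, the mean of the 5′ minus the 3′ log2 value over the array controls Gapdh and beta-actin, differed by strain in gubernaculum. It was −7.23 to −6.06 in 13 of 15 LE/orl arrays. It was −4.16 in LE/orl GD18 replicate A and −4.32 in LE/orl GD19 replicate D, arrays which the authors' own analysis left out, and −4.73 to −3.46 in the 19 LE/wt arrays. In testis the index was −1.53 to −1 in LE/orl and −1.45 to −1.07 in LE/wt arrays.

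Proteasome transcripts were lower in LE/orl than in LE/wt gubernacula on each day. At GD18, 23 of 29 proteasome probe sets fell and 2 rose (limma, adjusted p under 0.05), with a median difference of −1.28, against 0.06 over all features. Of the 8872 features tested, 24.1% were called lower and 27.2% higher at GD18, and among the probe sets of the authors' lists 37% and 39.6%. At GD19, 22 fell and 2 rose with a median of −1.42, against 25.9% and 26.6% of all features and 37.8% and 38.5% of the listed ones. On the left at GD20, 25 fell and 2 rose with a median of −1.29, against 26.9% and 20.1% of all features and 39.5% and 23.3% of the listed ones. On the right at GD20, 24 fell and 2 rose with a median of −1.22, against 20.3% and 18.1% of all features and 32.7% and 21.6% of the listed ones. In all 4 strain comparisons 20 probe sets were called lower and 2, both of Psmd11, higher. The share of all features called alike in all 4 was not computed. The left and right comparisons of GD20 share fetuses, so the 4 are not independent. In whole organs, fewer cells of a type and less RNA per cell cannot be told apart.

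The median over the 29 proteasome probe sets, taken on each array, showed the same split. It averaged 9.06 ± 0.45 in LE/orl and 10.32 ± 0.09 in LE/wt at GD18, and 9.08 ± 0.53 in LE/orl and 10.33 ± 0.17 in LE/wt at GD19 (SD, n = 4 each). On the left at GD20 it was 8.78 ± 0.24 in LE/orl and 9.93 ± 0.06 in LE/wt (SD, n = 4 each), and in right gubernacula 8.66 ± 0.08 and 9.85 ± 0.09 (SD, n = 3 each). The 5′ to 3′ index moved with strain. When the index entered the fit as a covariate, 13 of the 29 were called at GD18 (10 lower, 3 higher) and 13 at GD19 (12 lower, 1 higher). Shares of all features were not computed for the fit with the index. At GD20 limma called 0 with it, left or right. All LE/orl arrays of that day were among those with weak 5′ signal, so that strain and 5′ signal cannot be told apart at GD20.

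**Figure D1:**
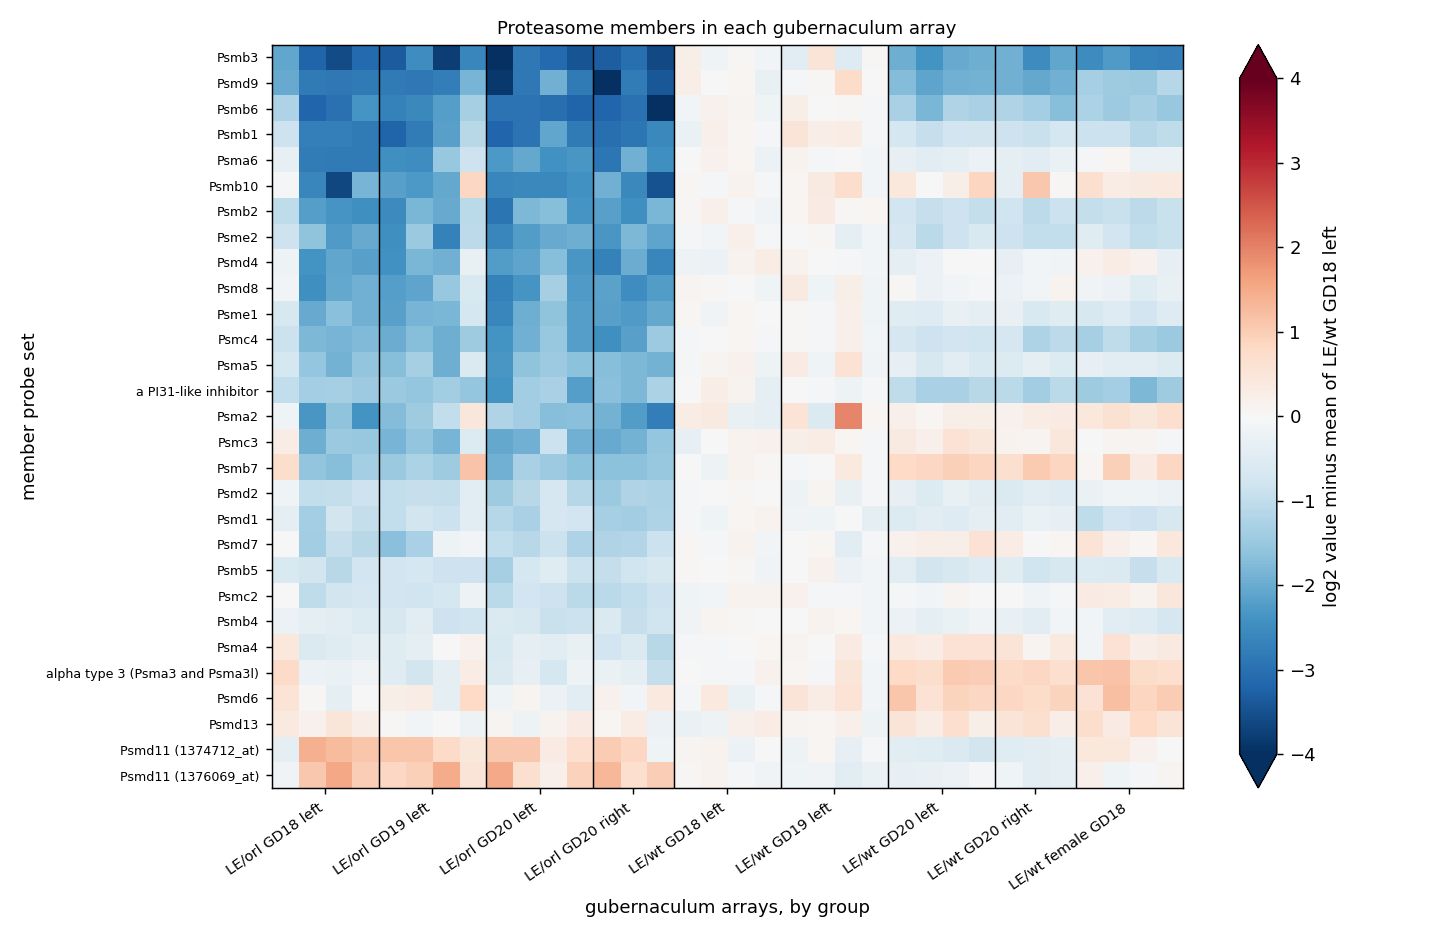
Heat map of the 29 proteasome probe sets, ordered from the lowest to the highest mean difference in LE/orl, in the 34 gubernaculum arrays, grouped by strain, day and side (male unless female is stated). Colour is the log2 value minus the mean of the 4 LE/wt GD18 left arrays. LE/orl arrays are blue for most probe sets, and the Psmd11 probe sets are red in 13 and 14 of the 15 LE/orl arrays.

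By part of the particle, all 8 beta subunit probe sets fell at GD18, with a median difference of −2.02. Psmb5, Psmb6 and Psmb7 encode the standard cutting subunits, and Psmb10 encodes the interferon-inducible replacement of Psmb7. Psmb6 averaged 6.54 ± 0.87 in LE/orl and 8.99 ± 0.17 in LE/wt at GD18 (SD, n = 4 each), a difference of −2.44 ± 0.30 (SE). Psmb5 differed less, with 11.90 ± 0.20 in LE/orl and 12.71 ± 0.10 in LE/wt, and was not called at GD20 (−0.26 left and −0.15 right). The PA28 subunits Psme1 and Psme2 fell at GD18 (−1.57 and −1.68). So did the 3 cap ATPases among the members, Psmc2, Psmc3 and Psmc4 (median −1.17), and 3 of 5 alpha subunit probe sets. Of 10 non-ATPase probe sets 6 fell and 2 rose.

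Promoters are shown for the proteasome members that hold the core of the antioxidant response element, TGACNNNGC, because factors of the Nfe2l1 and Nfe2l2 type that bind such elements are known to drive proteasome genes. The 250 bases before each start were read from RefSeq (assembly GRCr8) and searched on both strands. Promoters were found for 25 of 26 proteasome genes with 1 symbol, and 5 held the motif (20%), against 10.1% of 33469 promoters of all genes and 8 of 31 ubiquitin promoters (25.8%). The sequences run 5′ to 3′ on the gene's strand up to the base before the start, with the motif, on either strand, in capitals.
Psmb2: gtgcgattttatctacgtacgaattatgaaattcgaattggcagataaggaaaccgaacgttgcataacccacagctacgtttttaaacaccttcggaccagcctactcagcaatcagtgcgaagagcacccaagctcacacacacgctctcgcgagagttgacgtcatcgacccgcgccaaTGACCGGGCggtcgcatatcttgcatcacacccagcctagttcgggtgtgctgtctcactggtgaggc
Psmb5: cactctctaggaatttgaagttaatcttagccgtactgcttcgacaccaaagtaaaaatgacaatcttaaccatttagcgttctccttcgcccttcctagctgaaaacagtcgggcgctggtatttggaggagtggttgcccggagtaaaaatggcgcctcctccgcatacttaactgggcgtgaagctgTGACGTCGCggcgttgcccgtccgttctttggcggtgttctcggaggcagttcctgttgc
Psmb6: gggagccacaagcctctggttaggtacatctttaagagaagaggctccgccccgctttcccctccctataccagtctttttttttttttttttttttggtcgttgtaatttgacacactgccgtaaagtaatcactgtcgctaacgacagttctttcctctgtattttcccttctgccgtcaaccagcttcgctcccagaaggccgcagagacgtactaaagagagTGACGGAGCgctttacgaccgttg
Psmd1: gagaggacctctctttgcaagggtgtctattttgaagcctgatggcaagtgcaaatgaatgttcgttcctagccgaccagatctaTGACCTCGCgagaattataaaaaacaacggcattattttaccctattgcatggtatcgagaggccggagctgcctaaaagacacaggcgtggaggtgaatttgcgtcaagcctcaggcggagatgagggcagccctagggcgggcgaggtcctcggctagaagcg
Psmd9: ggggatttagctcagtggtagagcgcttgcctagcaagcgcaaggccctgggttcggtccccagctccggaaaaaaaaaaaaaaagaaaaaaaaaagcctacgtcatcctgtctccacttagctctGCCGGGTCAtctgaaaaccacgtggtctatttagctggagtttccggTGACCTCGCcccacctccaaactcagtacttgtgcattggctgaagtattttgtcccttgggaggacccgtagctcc
They lie at chr5:144254808-144255057 (plus strand), chr15:32047380-32047629 (minus strand), chr10:55737638-55737887 (plus strand), chr9:94157721-94157970 (plus strand) and chr12:39018265-39018514 (minus strand). The motif began 68 bases before the start in Psmb2, 60 in Psmb5, 24 in Psmb6 and 165 in Psmd1, and 124 and 77 bases before it in Psmd9. All 5 genes fell in LE/orl at GD18, as did most proteasome members whose promoters hold no such match, and the matches are a description of these windows.

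Psmb3, a beta subunit without a cutting site, had the lowest proteasome difference at GD18. In LE/orl its log2 values were 9.11, 7.99, 7.62 and 8.09 at GD18, 7.85, 8.71, 7.43 and 8.59 at GD19 and 7.14, 8.34, 8.07 and 7.73 in left gubernacula of GD20. In LE/wt they were 11.44, 11.01, 11.22 and 11.08 at GD18, 10.76, 11.69, 10.68 and 11.25 at GD19 and 9.25, 8.81, 9.16 and 9.23 at GD20. The strains did not overlap on any day, and LE/wt lay lower at GD20 than on the earlier days. The difference was −2.99 ± 0.29 at GD18 (SE, adjusted p = 4.75e-09), −2.95 at GD19, −1.29 in left and −1.14 in right gubernacula of GD20.

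Psmd9, an assembly chaperone of the cap ATPases, had 5.17, 4.35, 4.32 and 4.38 in LE/orl and 7.44, 7.17, 7.26 and 6.89 in LE/wt at GD18. At GD19 it had 4.37, 4.34, 4.42 and 5.32 in LE/orl and 7.16, 7.24, 7.91 and 7.17 in LE/wt. The strains were apart on both days, and the highest LE/orl values came from GD18 replicate A and GD19 replicate D. Most LE/orl values lay under 5, the minimum used to admit a probe set, so the size of the difference (−2.64 ± 0.30 at GD18, adjusted p = 5.02e-08) rests on a level near the array's floor. At GD20 the left gubernacula of LE/orl had 3.33, 4.34, 5.26 and 4.37 and those of LE/wt 5.47, 5.07, 5.26 and 5.29, and the groups overlapped. That difference of −0.95 was −0.62 without LE/orl replicate A and then missed the threshold.

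Psmb2, another beta subunit without a cutting site, had 9.71, 8.52, 8.38 and 8.27 in LE/orl and 10.77, 10.95, 10.64 and 10.58 in LE/wt at GD18 (−2.01 ± 0.27). Psmc4, an ATPase of the cap, had 9.98, 9.05, 9.00 and 9.09 in LE/orl and 10.80, 10.86, 10.94 and 10.82 in LE/wt (−1.57 ± 0.21). Psme2, a PA28 subunit induced by interferon, had 9.26, 8.47, 7.82 and 8.07 in LE/orl and 10.02, 9.98, 10.30 and 10.04 in LE/wt (−1.68 ± 0.27). In none of the 3 did the strains overlap at GD18, and replicate A was the LE/orl array closest to LE/wt in each. The macrophage marker C1qc, the single gene of its list of 6 that was named, also fell at GD18 (2.89 in LE/orl and 7.12 in LE/wt). Its LE/orl mean lay under the minimum of 5, so the size of this fall rests on a level near the floor. The part of C1qc in the differences of the interferon-inducible Psme2 and Psmb10 was not tested.

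Psmd11, a non-ATPase subunit of the cap, went against most other subunits. Its 2 probe sets averaged 11.36 ± 0.84 and 10.60 ± 0.72 in LE/orl, against 10.51 ± 0.17 and 9.74 ± 0.12 in LE/wt at GD18 (SD, n = 4 each). Both differences (0.85 ± 0.27 and 0.86 ± 0.26) were called, though the groups overlapped. On the left at GD20 they were 1.36 ± 0.27 and 1.05 ± 0.26, and the groups did not overlap. Psmd13, also of the cap, was called in none of the 4 strain comparisons (0.34 at GD18 and −0.34 in left gubernacula of GD20).

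The strain difference of 4 proteasome probe sets changed with day (limma F test over the 3 days, 26.7% of all features called, 40.4% of the listed ones). For Psmd9 and Psmb3 the GD20 difference was less negative than the GD18 difference, by 1.69 (adjusted p = 0.00229) and 1.69 (adjusted p = 0.00288). For Psmd6, of the cap, and the probe set for alpha type 3, which names Psma3 and Psma3l together, it was more negative, by −1.08 (adjusted p = 0.0135) and −1.36 (adjusted p = 0.00403). Alpha type 3 had 11.93, 10.93, 10.88 and 11.03 in LE/orl and 11.14, 11.09, 11.09 and 11.35 in LE/wt at GD18, and the groups overlapped. In left gubernacula of GD20 it had 10.60, 10.85, 10.46 and 10.96 in LE/orl and 11.95, 11.88, 12.20 and 12.15 in LE/wt, with LE/orl wholly below. Without LE/orl GD18 replicate A, 7 proteasome probe sets were called in place of 4, and 8 when the fit held a term for 5′ signal.

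In LE/wt males, proteasome transcripts were also compared between GD20 and GD18. Of the 29, 10 fell and 4 rose (median −0.35, against 0.02 over all features, of which 20% fell and 24.7% rose). Among the listed probe sets 25.4% fell and 35.7% rose. Fitting only the groups compared gave 15 lower and 7 higher proteasome probe sets in place of 10 and 4. Between GD19 and GD18 limma called 0 of the 29 in LE/wt, where 0 had an unadjusted p under 0.05 and 0.237% of all features were called. In LE/orl it called 0 between GD20 and GD18, where 6 had an unadjusted p under 0.05 and 6.39% of all features were called. Between the LE/wt sexes at GD18, 12 proteasome probe sets were higher in males and 3 lower, against 23.6% and 29.5% of all features. Among the listed probe sets 28.6% were higher and 36.7% lower. The sex, LE/wt day and GD18 strain comparisons share the LE/wt GD18 left arrays, so their values are given side by side only.

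The 8 LE/wt male arrays of GD18 and GD19 lay wholly above the other 26 gubernaculum arrays for 11 proteasome probe sets and wholly below them for 0, against 6.36% and 4.73% of all features. Shares of the listed probe sets were not computed for such patterns across arrays. The 11 were Psma5, Psmb1, Psmb2, Psmb3, Psmb5, Psmb6, Psmc4, Psmd9, Psme1, Psme2 and a probe set for an inhibitor like PI31. Psmb3 was 2.55 ± 0.29 higher in males than in females (adjusted p = 3.94e-08), with female values of 8.69, 8.91, 8.49 and 8.46. Its GD20 minus GD18 difference in LE/wt was −2.08 ± 0.29. Psmd6, alpha type 3 and Psmd13 were lower in males, with differences of −0.91, −0.92 and −0.58.

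A partly different set followed the LE/orl arrays with the weak 5′ signal. The 13 such arrays lay wholly below the other 21 gubernaculum arrays for 16 proteasome probe sets and wholly above for 0, against 6.72% and 3.71% of all features. Those not named in the preceding pattern were Psma2, Psma6, Psmb7, Psmb10, Psmc2, Psmc3, Psmd2, Psmd4, Psmd8 and alpha type 3. All 15 LE/orl arrays lay wholly below the 19 LE/wt arrays for 0 of the 75 members and wholly above for 0, against 0.271% and 0.282% of all features.

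The LE/orl arrays of GD18 and GD19 were also fitted in 2 sets against the same 8 LE/wt arrays, with day as a term. In the 6 arrays with weak 5′ signal 25 of 29 proteasome probe sets fell and 2 rose, with a median of −1.74, against 32.7% and 36.4% of all features. In the 2 arrays with strong 5′ signal 12 fell and 2 rose, with a median of −0.30, against 21.9% and 24%. Both fits share the LE/wt arrays, and the second rests on 2 fetuses. Psmb3 (−2.29 strong, −3.19 weak), Psmd9 (−2.03 strong, −2.92 weak), Psmb6 (−1.32 strong, −2.70 weak) and Psmb5 (−0.71 strong, −0.79 weak) fell in both sets. Psmb10 (0.27 strong, −2.56 weak), Psmd4 (−0.25 strong, −2.14 weak) and Psma2 (−0.10 strong, −1.99 weak) passed the threshold in the weak set and not in the strong set. All 6 weak values of Psmb10 and of Psmd9 lay under the minimum of 5, so the sizes of these differences rest on a level near the floor. The difference between the sets was not tested. Psmb7 was higher than in LE/wt in the strong set (0.89) and lower in the weak set (−1.50). The Psmd11 probe sets were called in the weak set (1.20 and 1.27) and not in the strong set (0.09 and 0.31).

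**Figure D2:**
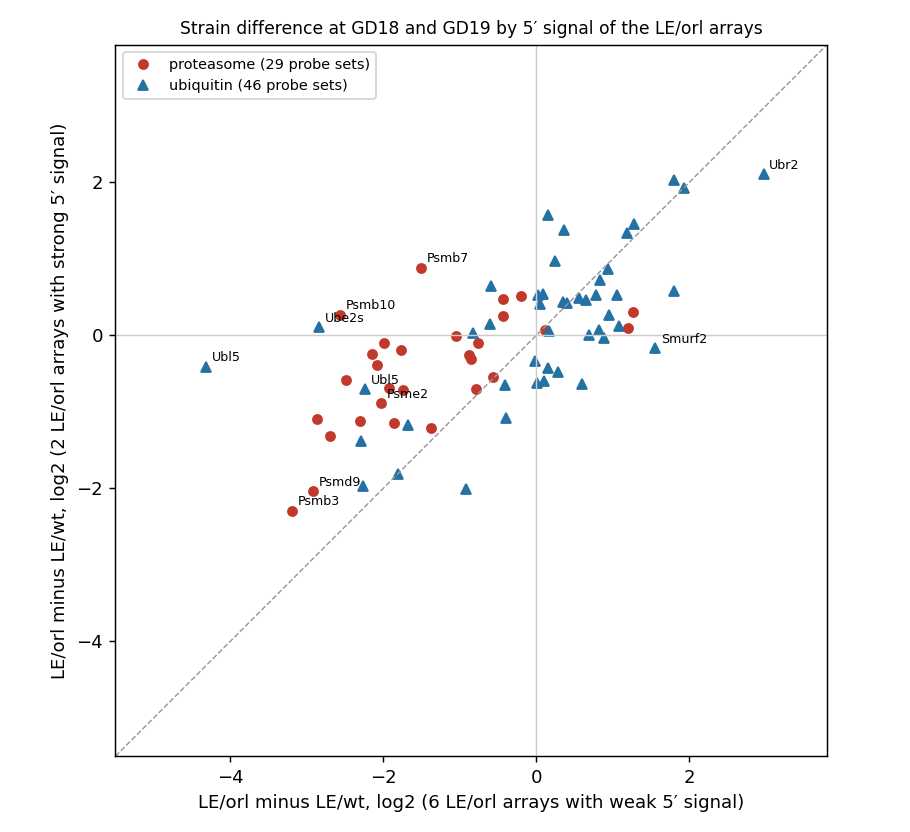
Strain difference (log2, LE/orl minus LE/wt, GD18 and GD19 together) of each member in the 2 LE/orl arrays with strong 5′ signal (vertical axis) against the 6 with weak 5′ signal (horizontal axis), each set against the same 8 LE/wt arrays. Circles are proteasome and triangles ubiquitin probe sets, and the dashed line marks equal differences; Psmb3 and Psmd9 are low on both axes and Psmb10 is low on the horizontal axis.

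Ubiquitin system members moved in both directions. At GD18, 19 of 46 rose in LE/orl and 9 fell (median 0.33), and at GD19 21 rose and 11 fell. On the left at GD20, 16 rose and 17 fell, and in right gubernacula 14 rose and 14 fell. Of all features 27.2% rose and 24.1% fell at GD18, and of the listed ones 39.6% and 37%. The share of members that rose at GD18 was close to that of the listed ones. At GD19 these shares were 26.6% and 25.9% of all features and 38.5% and 37.8% of the listed ones. At GD20 they were 20.1% and 26.9% on the left (listed, 23.3% and 39.5%) and 18.1% and 20.3% on the right (listed, 21.6% and 32.7%), so that the share of members that fell on the left was close to that of the listed probe sets. When the index entered as a covariate, limma called 0 of the 46 at GD20, and the share of all features was not computed. In all 4 comparisons 6 were called higher and 5 lower, and 7 were called higher in some and lower in others. Shares of all features were not computed for these joint counts. At GD18, 5 of 8 ligase probe sets rose and 0 fell, 8 of 14 deubiquitinase probe sets rose and 2 fell, and of the 14 E2 probe sets 4 rose and 5 fell. The probe sets of Ubb, which encodes ubiquitin as a chain of repeats, were not called at GD18 (−0.01 and −0.15) and were higher in LE/orl left gubernacula of GD20 (0.66 and 0.60). In the fit of GD18 and GD19 by 5′ signal they were lower in the strong set (−0.59 and −0.62). In the weak set they were not called (0.10 and 0.01).

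Ubr2, a ligase that recognises destabilising protein ends, had the highest difference at GD18. Its values were 7.73, 8.80, 8.77 and 9.04 in LE/orl and 5.68, 6.02, 5.68 and 5.53 in LE/wt at GD18, and 9.04, 9.18, 8.37 and 8.27 in LE/orl and 5.85, 5.37, 7.00 and 6.03 in LE/wt at GD19. In left gubernacula of GD20 it had 8.64, 9.05, 9.14 and 8.85 in LE/orl and 8.32, 8.24, 8.01 and 8.15 in LE/wt. LE/orl was wholly above LE/wt each time. The difference was 2.86 ± 0.27 at GD18 (SE, adjusted p = 2.98e-09) and 0.74 ± 0.27 in left gubernacula of GD20 (adjusted p = 0.0262), and the GD20 difference lost its call without LE/wt replicate C or D or LE/orl replicate B or C. When the fit held a term for 5′ signal, the GD20 difference turned to −0.067 on the left and −0.047 on the right, neither called. Ubr1, a relative with the same kind of substrate, differed by 1.32 at GD18 and −0.50 in left gubernacula of GD20.

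Usp9x, a large deubiquitinase, had in the probe set called in more contrasts 8.98, 8.65, 8.51 and 8.76 in LE/orl and 6.74, 6.77, 5.87 and 6.47 in LE/wt at GD18. In left gubernacula of GD20 it had 8.50, 8.69, 8.62 and 8.15 in LE/orl and 8.95, 9.11, 8.57 and 8.72 in LE/wt. The strains were apart at GD18 (2.26 ± 0.23) and overlapped at GD20. The E2 enzyme Ube2d3 had in its most often called probe set 11.77, 11.60, 11.41 and 11.24 in LE/orl and 9.70, 9.05, 9.13 and 9.45 in LE/wt at GD18. In left gubernacula of GD20 it had 11.09, 11.16, 10.97 and 11.55 in LE/orl and 11.89, 11.74, 11.94 and 11.90 in LE/wt. LE/orl was wholly higher at GD18 (2.17 ± 0.25) and wholly lower at GD20 (−0.68 ± 0.25). The GD20 difference of Ube2d3 lost its call without LE/wt replicate C or LE/orl replicate A or C.

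The strain difference of 23 of 46 ubiquitin probe sets changed with day, against 26.7% of all features and 40.4% of the listed ones. The 6 members with the lowest p were 2 probe sets of Ube2d3, Usp9x, Ubr2, Ubr1 and Usp47, a deubiquitinase. The GD20 minus the GD18 difference was −2.85 and −2.50 for Ube2d3, −2.60 for Usp9x, −2.12 for Ubr2, −1.82 for Ubr1 and −1.62 for Usp47. In LE/orl limma called 0 of the 46 between GD20 and GD18 (5 had an unadjusted p under 0.05). In LE/wt 18 rose and 10 fell, against 24.7% and 20% of all features and 35.7% and 25.4% of the listed ones. Both shares of members were close to those of the listed ones. In LE/wt Ube2d3 rose by 2.54 ± 0.25, Ubr2 by 2.45 ± 0.27 and Usp9x by 2.37 ± 0.23. Ube2j1, an E2 of the endoplasmic reticulum, differed by −1.57 ± 0.31 and Ube2n, an E2 for chains that signal rather than degrade, by −1.29 ± 0.20.

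**Figure D3:**
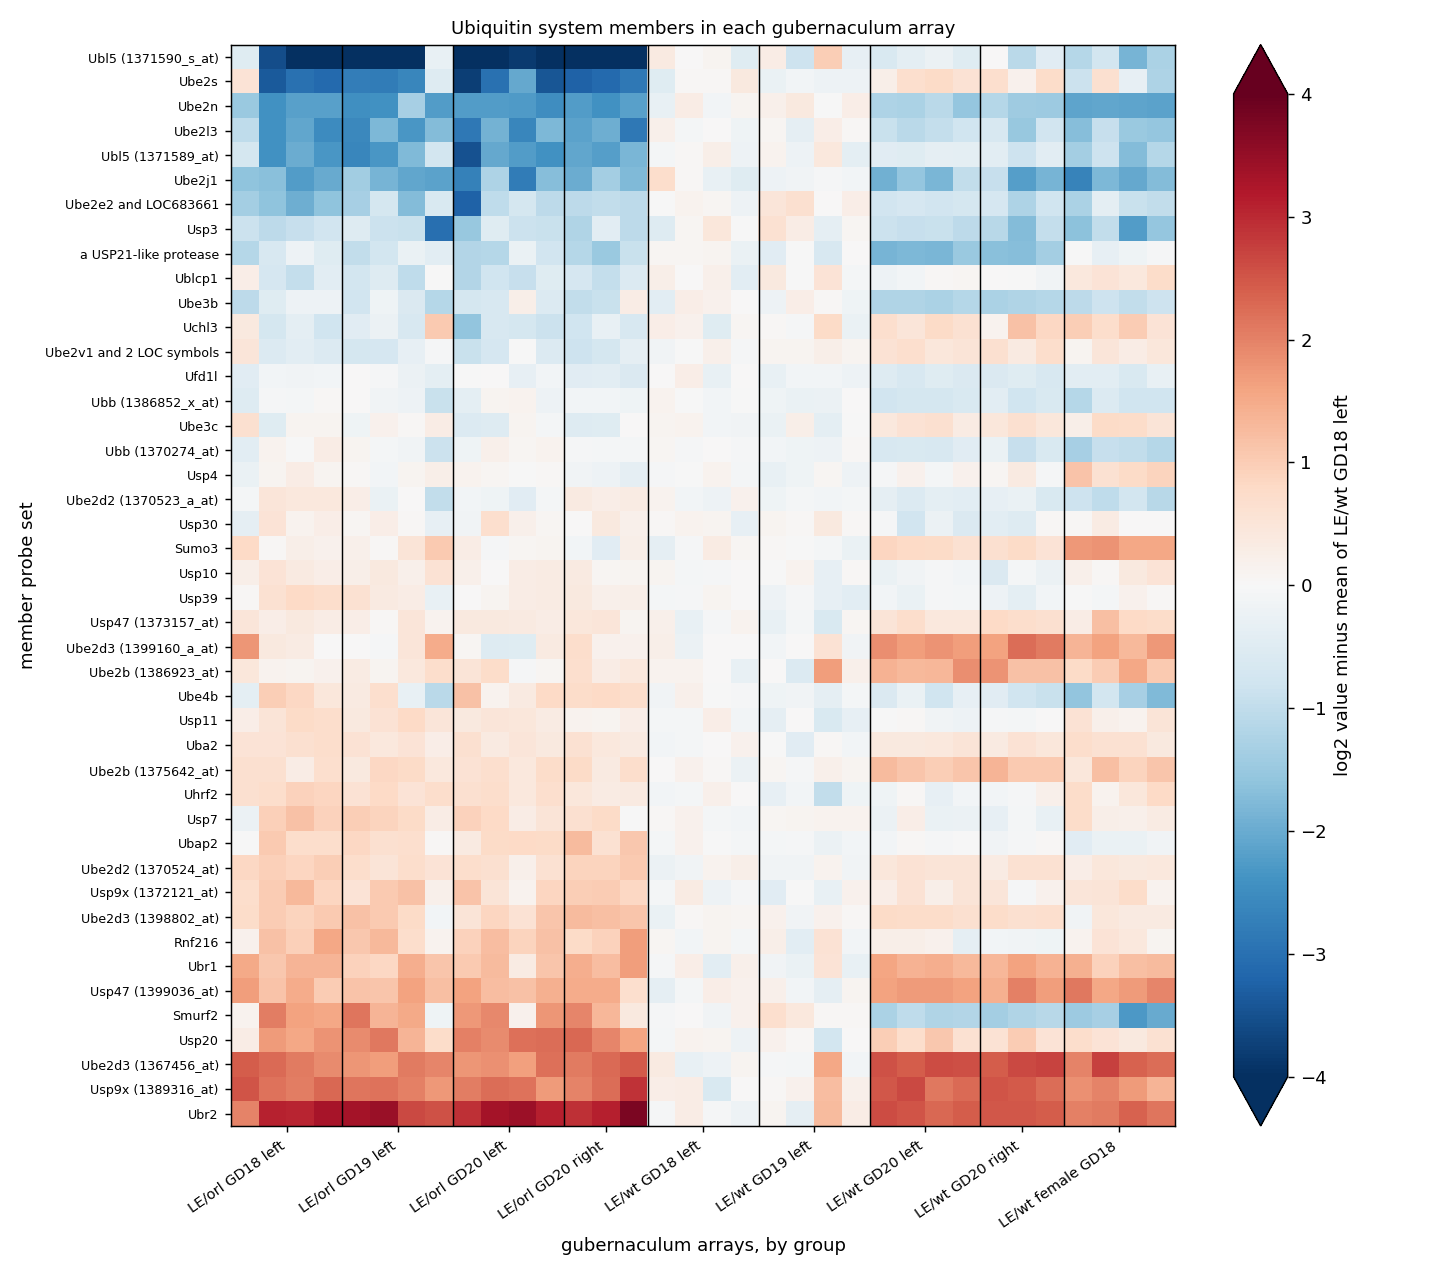
Heat map of 44 of the 46 ubiquitin system probe sets in the 34 gubernaculum arrays, ordered from the lowest to the highest mean difference in LE/orl (colour, log2 value minus the mean of the 4 LE/wt GD18 left arrays; male unless female is stated). Ubr2 and 1 probe set each of Usp9x and Ube2d3 are red in LE/orl, in LE/wt of GD20 and in LE/wt females.

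Between the LE/wt sexes, 13 ubiquitin probe sets were higher in males and 20 lower, against 23.6% and 29.5% of all features. Among the listed probe sets 28.6% were higher and 36.7% lower, and the share of members higher in males was close to the former. Ube2n was 2.12 ± 0.20 and Ube2j1 2.07 ± 0.31 higher in males, and Ube2d3 (−2.33 ± 0.25), Ubr2 (−2.15 ± 0.27) and Usp47 (−1.83 ± 0.20) were lower. The female values of Ubr2 were 7.75, 7.82, 8.08 and 7.86, above every LE/wt male of GD18. The 8 LE/wt male arrays of GD18 and GD19 lay wholly below the other 26 for 7 of 46 ubiquitin probe sets and wholly above for 4, against 4.73% and 6.36% of all features. Shares of the listed probe sets were not computed here either. The 7 were of Ubr2, Usp20, Uba2, Ube2b, Ube2d3, Usp47 and Usp9x, and the 4 of Ube2l3, Ube2j1, Ube2n and Ube2e2, the last of which shares its probe set with LOC683661.

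In the split by 5′ signal, 18 ubiquitin probe sets rose and 13 fell in the strong set, against 24% and 21.9% of all features. In the weak set 21 rose and 13 fell, against 36.4% and 32.7%, so that the share of members that fell (28.3%) was below that of all features. Ube2n was lower in both (−1.97 strong, −2.27 weak), as was Ube2j1 (−1.81 strong, −1.81 weak). Ubr2 (2.10 strong, 2.97 weak), Usp9x (1.92 strong, 1.93 weak) and Ube2d3 (2.04 strong, 1.80 weak) were higher in both. Ube2s, the E2 that extends chains for the anaphase-promoting complex, was 0.11 in the strong and −2.84 in the weak set. Ubl5, a ubiquitin-like protein of splicing, was −0.41 in the strong and −4.31 in the weak set in the probe set with the larger difference, where 5 of the 6 weak values lay under the minimum of 5.

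Smurf2, a ligase that acts on the TGF-beta pathway, had 8.89, 9.10, 7.35 and 8.94 in LE/orl and 5.89, 6.14, 5.95 and 6.00 in LE/wt left gubernacula of GD20, with no overlap (2.57 ± 0.41, adjusted p = 2.84e-05). At GD18 it had 7.30, 9.23, 8.78 and 8.72 in LE/orl and 7.13, 7.17, 7.03 and 7.34 in LE/wt, and replicate A of LE/orl lay within the LE/wt range. The split by 5′ signal gave −0.17 for the strong and 1.56 for the weak set. After Smurf2, the highest of the 16 differences called higher in LE/orl left gubernacula of GD20 were those of Usp20, a deubiquitinase (1.25), and the ligases Ube4b (1.11) and Rnf216 (0.98). In the split of GD18 and GD19, Ube4b was lower in the strong set (−0.63) and higher in the weak set (0.59). Usp20 (0.57 strong, 1.80 weak) and Rnf216 (0.12 strong, 1.09 weak) were called in the weak set only.

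Probe sets of 1 gene did not always move alike, and 8 names had more than 1 probe set. The 3 Ube2d3 probe sets differed by 2.17, 0.92 and 0.62 at GD18, the last not called. Those of Ube2d2, a close relative of Ube2d3, differed by 0.91 and 0.31, the second not called. The Ube2d2 probe set that was called had 10.04, 10.17, 10.06 and 10.20 in LE/orl and 8.97, 9.08, 9.35 and 9.43 in LE/wt at GD18, which did not overlap. Ube2b, an E2 of DNA damage tolerance, had in 1 probe set 9.07, 9.06, 8.74 and 9.09 in LE/orl and 8.45, 8.59, 8.49 and 8.20 in LE/wt, again apart, while its other probe set was not called (0.22). Usp47 differed by 1.33 and 0.35 (the second not called), Usp9x by 2.26 and 0.96, and Ubl5 by −3.28 and −1.86.

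**Figure D4:**
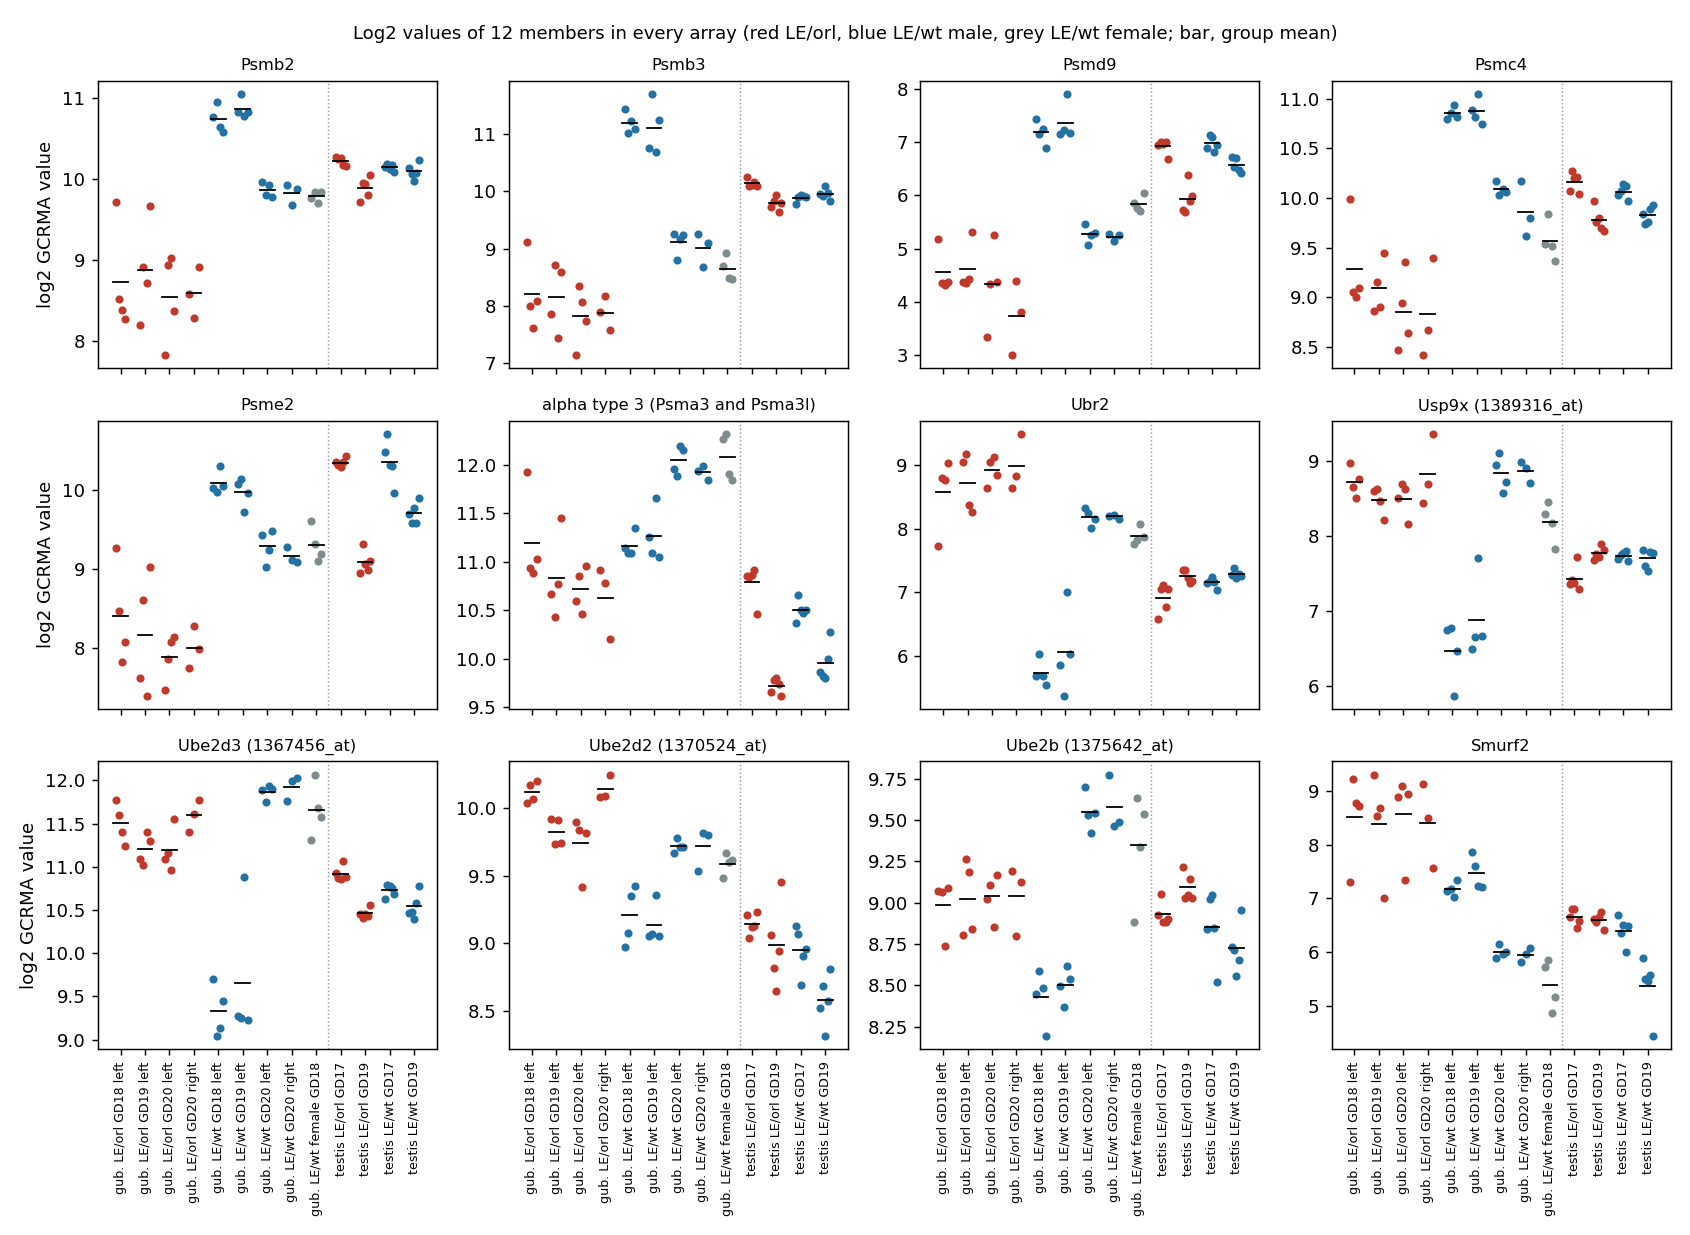
Log2 values of 6 proteasome and 6 ubiquitin members in each of the 54 arrays, by group (points, arrays; bars, group means; red LE/orl, blue LE/wt male, grey LE/wt female; the dotted line divides gubernaculum from testis, whose levels are not compared). Psmb3 and Psmd9 are high, and Ubr2, Usp9x and Ube2d3 low, in the LE/wt male gubernacula of GD18 and GD19.

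Other genes of the pathway were taken from a list of 87, of which 33 were named in the authors' lists, on 37 probe sets. At GD18, 20 of the 37 fell in LE/orl and 8 rose (median −0.68), and in left gubernacula of GD20 26 fell and 1 rose (median −0.78). Of all features 24.1% fell and 27.2% rose at GD18 and 26.9% and 20.1% on the left at GD20, and of the probe sets of the authors' lists, from which the 37 come, 37% and 39.6% and then 39.5% and 23.3%. Among those with the lowest p at GD18 were Trim33, a nuclear ligase (9.95 in LE/orl and 7.81 in LE/wt), and Cdc20, an activator of the anaphase-promoting complex (7.51 in LE/orl and 8.69 in LE/wt).

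In testis the strain differences of proteasome members were small. Of the 29, 5 rose and 0 fell at GD17 (median 0.08), against 7.24% and 11.2% of 8013 features, and 1 rose and 4 fell at GD19 (median −0.05), against 5.24% and 8.1%. The 5 at GD17 were Psmb3 (0.25), Psmb6 (0.26), Psmc3 (0.28), Psmd8 (0.27) and alpha type 3 (0.29). Only 2 were called without LE/orl replicate D or LE/wt replicate D, and 3 without LE/orl replicate B or LE/wt replicate A or C. The strains were apart in 5′ to 3′ index at GD17, and the part of the index in the testis calls was not tested. At GD19 Psmb10, Psmd9, Psme2 and Psmb2 fell and Psmd2 rose (0.24). Without LE/orl replicate A, C or D, or LE/wt replicate A, B or E, 3 were called at GD19, as with a minimum of 7, quantile normalization or only the groups compared. Psmb10 and Psme2 are in the authors' testis list, and the 27 members outside it held 5 calls at GD17 and 3 at GD19.

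Psme2 had 8.94, 9.31, 9.06, 8.98 and 9.10 in LE/orl and 9.69, 9.58, 9.77, 9.57 and 9.89 in LE/wt testes at GD19, with no overlap (−0.62 ± 0.11, adjusted p = 0.000448). At GD17 it had 10.35, 10.31, 10.28, 10.35 and 10.43 in LE/orl and 10.48, 10.70, 10.31, 10.30 and 9.96 in LE/wt, and the groups overlapped. Psmd9 had 5.72, 5.70, 6.39, 5.90 and 5.99 in LE/orl and 6.72, 6.54, 6.70, 6.48 and 6.42 in LE/wt at GD19, again apart (−0.63 ± 0.11, adjusted p = 0.000656). Psmb10 averaged 6.06 ± 0.17 in LE/orl and 6.85 ± 0.13 in LE/wt at GD19 (SD, n = 5 each), a difference of −0.79 ± 0.12. The strain difference changed between GD17 and GD19 for 5 proteasome probe sets, all downward, against 4.7% of features, and for 6 ubiquitin probe sets, all upward, against 4.94%. The 5 became 3 without LE/wt GD17 replicate D.

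Proteasome transcripts were also compared between ages within each strain of testes. In LE/orl 19 of 29 were lower at GD19 than at GD17 and 1 higher (median −0.29), against 30.2% and 25.3% of all features. In LE/wt 13 were lower and 3 higher (median −0.18), against 22.7% and 18.9%, and the other 13 were not called. The median over the 29 averaged 9.69 ± 0.08 at GD19 and 10.06 ± 0.02 at GD17 in LE/orl, and 9.77 ± 0.09 at GD19 and 9.88 ± 0.06 at GD17 in LE/wt (SD, n = 5 each). The difference of Psme2 with age was −1.26 ± 0.11 in LE/orl and −0.65 ± 0.11 in LE/wt, and that of alpha type 3 −1.07 in LE/orl and −0.55 in LE/wt. Psmb10 rose in LE/wt (0.72 ± 0.12) and was not called in LE/orl (0.13).

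**Figure D5:**
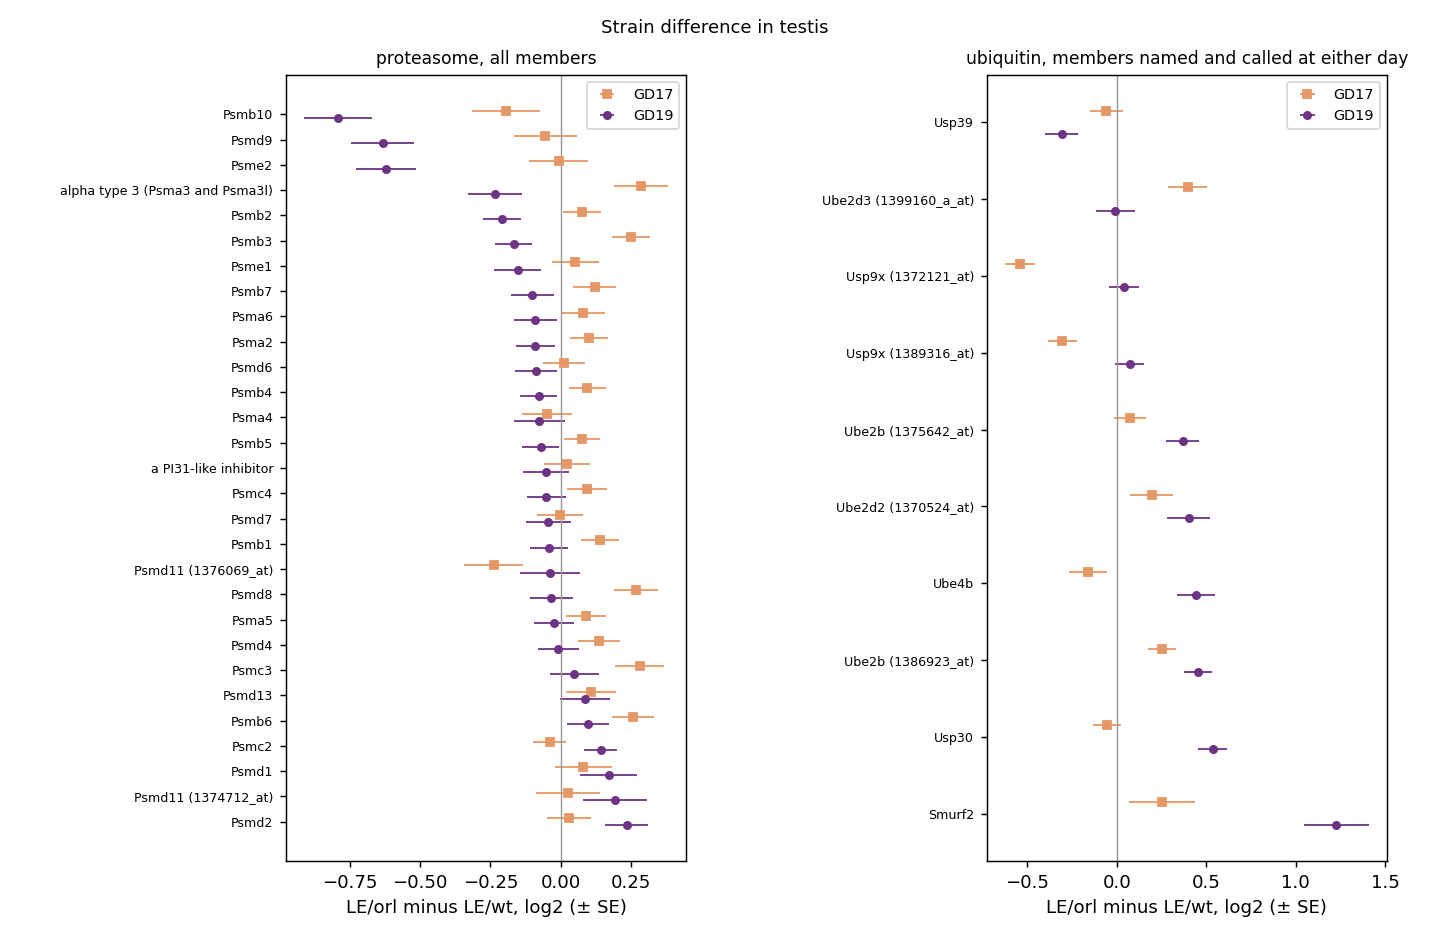
Strain difference in testis (log2, LE/orl minus LE/wt, with SE from limma) at GD17 (squares) and GD19 (circles) for all 29 proteasome probe sets and for those of the 44 ubiquitin probe sets of the heat map that were called on either day. Psmb10, Psmd9 and Psme2 are low and Smurf2 is high at GD19.

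Of the 46 ubiquitin members, 3 rose and 2 fell in LE/orl testes at GD17, against 7.24% and 11.2% of all features. At GD19 6 rose and 1 fell, against 5.24% and 8.1%. The 5 calls at GD17 became 10 with a minimum of 7 or with trend and robust settings, and 3 with 1 probe set per gene. Smurf2 had 6.62, 6.55, 6.65, 6.74 and 6.41 in LE/orl and 5.89, 5.49, 5.45, 5.57 and 4.44 in LE/wt at GD19, with no overlap (1.23 ± 0.18, adjusted p = 0.000112). At GD17 it had 6.65, 6.80, 6.79, 6.44 and 6.58 in LE/orl and 6.68, 6.35, 6.49, 5.99 and 6.48 in LE/wt, which overlapped (0.25, not called). Usp30, a mitochondrial deubiquitinase, averaged 7.37 ± 0.09 in LE/orl and 6.83 ± 0.19 in LE/wt at GD19 (SD, n = 5 each), a difference of 0.54 ± 0.08. The Ube2b probe sets were higher at GD19 (0.46 and 0.37), and the Usp9x probe sets were lower at GD17 (−0.54 and −0.31). Smurf2, Usp30, 1 probe set of Ube2b and 1 of Usp9x are in the authors' testis list.

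With age, 15 ubiquitin members fell and 10 rose in LE/orl testes, and 15 fell and 3 rose in LE/wt testes, against 30.2% lower and 25.3% higher over all features in LE/orl and 22.7% and 18.9% in LE/wt. Ube2j1 rose in both strains (1.15 ± 0.15 in LE/orl, 0.86 ± 0.15 in LE/wt), as did the deubiquitinase Usp4 (1.16 in LE/orl, 0.73 in LE/wt). Ublcp1, a phosphatase of the proteasome, fell in both (−1.14 in LE/orl, −0.97 in LE/wt). Smurf2 fell in LE/wt (−1.03 ± 0.18) and was not called in LE/orl (−0.06), and its strain difference at GD19 exceeded that at GD17 by 0.98 (adjusted p = 0.0219).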

How the data were processed

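Single fetal organs were measured on Affymetrix arrays. The authors deposited log2 values per probe set, made from the scanned intensity by GCRMA per the submitters' processing notes. Per the labels' protocols, gubernaculum RNA was labelled in a 2-cycle and testis RNA in a 1-cycle protocol, so levels were not compared between tissues. Groups came from the labels. Each tissue was fitted with limma 3.58.1 in R 4.3.3 over all its groups, after leaving out 57 control probe sets and keeping those with a log2 value of at least 5 in 3 gubernaculum or 5 testis arrays. This left 8872 and 8013 features, and all 75 members passed in both tissues. Calls are Benjamini-Hochberg adjusted p under 0.05 over all features. The number of arrays limits the precision.

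The members and lists were chosen with earlier results of these data known. All proteasome members could be named. Ubiquitin members were named for the 4 highest and 4 lowest called differences without overlap in a contrast, for several probe sets, or for a change with day; members named for the patterns across arrays were chosen after their values were seen. Values in each array are given for the 6 members of each class called in most contrasts. On simulated data for the gubernaculum strain contrast at GD18 (8590 features), 55.7% of log2 changes of 1 and 11.3% of changes of 0.5 were recovered. For the testis contrast at GD19 (7943 features) these were 100% and 74%. Few features were changed, 97 by each size in gubernaculum and 100 in testis, and limma called 67 and 182. The real contrasts called 4552 and 1069. The adjusted threshold depends on how many features differ, so these shares are not those of the real contrasts. Alternatives covered the minimum signal, normalization, samples in the fit, probe sets per gene, spread model, blocks, left-out arrays and, for gubernaculum only, the 5′ to 3′ index. A further gene of the pathway list and 2 ubiquitin members are not reported here.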

Additional observations from a re-analysis of the deposited data

Results flagged for a closer look

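Within-group outlying arrays were looked for in 132 sets of values of the 12 members given by array, and 15 were found by Dixon's test, which chance gives in about 1 in 20 groups. LE/orl GD18 gubernaculum replicate A stood above its group for Psmd9 (5.17), alpha type 3 (11.93) and Psmc4 (9.98), and LE/orl GD19 replicate D for Psmd9 (5.32). LE/wt GD19 gubernaculum replicate C stood above its group for Psmd9 (7.91), Usp9x (7.7), Ube2d3 (10.89) and Ube2d2 (9.36). Ube2b was low in LE/orl GD18 replicate C (8.74) and Smurf2 in LE/orl GD20 left replicate C (7.35). In LE/orl testes of GD17, Psmd9 (6.69) and alpha type 3 (10.46) were low in replicate E, Usp9x was high in replicate D (7.72) and Ube2b in replicate B (9.05). In LE/wt testes of GD17 Psmb3 was low in replicate A (9.77).

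The strain difference itself changed with day for 27 members in gubernaculum (limma F test), of which 25 are given, and for 11 in testis. In gubernaculum the GD20 minus the GD18 difference was −2.85, −2.5 and −0.88 for the 3 Ube2d3 probe sets, −2.6 for Usp9x, −2.12 for Ubr2, −1.82 for Ubr1, −1.62 for Usp47, −1.37 and −1.07 for Ube2b, −0.89 for Ube2d2 and −0.86 for Ube3c. It was −1.36 for alpha type 3, −1.21 for Uchl3, −1.08 for Psmd6, −0.95 for Sumo3 and −0.57 for Uba2. It was positive for Psmd9 (1.69), Psmb3 (1.69), the probe set for a USP21-like protease (1.53), Ube2j1 (1.34), Ube3b (1.27), Ube2n (1.05), both Ubb probe sets (0.76 and 0.66) and Ufd1l (0.65). In testis the GD19 minus the GD17 difference was 0.98 for Smurf2, 0.6 for Ube4b, 0.59 for Usp30, 0.58 and 0.38 for Usp9x, 0.42 for Rnf216, −0.61 for Psme2, −0.6 for Psmb10, −0.58 for Psmd9, −0.52 for alpha type 3 and −0.42 for Psmb3. No cause of these values was tested.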

How the results depend on the processing

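When the 5′ to 3′ index entered the fit, proteasome calls numbered 13 at GD18 and 13 at GD19, 0 proteasome and 0 ubiquitin members were called in left or right gubernacula of GD20, 2 ubiquitin members between days in LE/orl, and 8 proteasome members for the change with day. Under it, Ubr2 turned to −0.067 (left) and −0.047 (right) and Psme2 to 0.079 (right) at GD20, all uncalled. Without the 2 LE/orl arrays of strong 5′ signal, 9 proteasome members changed with day and 2 ubiquitin members differed between days in LE/orl, against 1 with no minimum signal. Fitting only the groups compared gave 22 proteasome calls for LE/wt GD20 minus GD18. In testis at GD17, 10 ubiquitin members were called with a minimum of 7 or with trend and robust settings, and 3 with 1 probe set per gene. At GD19, 3 proteasome members were called with a minimum of 7, quantile normalization or only the groups compared. Shares of all features were not computed for these alternatives, and the cause was not tested.

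Leaving out 1 array at a time gave, for proteasome and ubiquitin calls, 23 to 26 and 25 to 31 at GD18, 22 to 26 and 27 to 32 at GD19, 26 to 28 and 28 to 33 in left and 24 to 26 and 20 to 24 in right gubernacula of GD20. It gave 14 (in each case) and 30 to 32 between sexes, 10 to 12 and 24 to 27 between days in LE/wt, 0 to 1 and 0 to 2 in LE/orl, and 4 to 7 and 19 to 25 for the change with day. In testis it gave 2 to 5 and 4 to 7 at GD17, 3 to 5 and 5 to 7 at GD19, 13 to 16 and 16 to 19 between days in LE/wt, 18 to 20 and 24 to 28 in LE/orl, and 3 to 6 and 4 to 7 for the change with day.

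The replicate letters name fetuses, and compared groups differ in strain, sex or day and so hold different fetuses. Deviations of same-lettered arrays of compared gubernaculum groups had correlations of −0.423 to 0.266. Right and left organs of 1 fetus gave −0.347, −0.013 and 0.353 in LE/wt and 0.45, 0.187 and 0.549 in LE/orl. These ranges overlap, so the correlations cannot tell paired from unpaired arrays. With the letter as a replicate block, 24 proteasome and 28 ubiquitin members were called at GD18, 4 and 7 in testis at GD17 and 4 and 6 at GD19. Right and left organs of GD20 with the same letter share a fetus; with the fetus as a random block (consensus correlation 0.408) the calls were 27 and 32 in left and 26 and 30 in right gubernacula.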
